A study of Mus musculus with 2 samples.

Results

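The genes described here are the chaperones, disulfide isomerases and stress sensors of the endoplasmic reticulum (ER), together with the unfolded protein response they belong to. They were 35 genes chosen by symbol, and 34 of them had a row among the 14678 genes of the deposited table. The remaining gene, Manf, was not analysed here. Messenger RNA was measured by digital gene expression (DGE) profiling, in which the tags assigned to a gene are counted as its copy number, in mouse uterus at G2.5, before the embryo implants. In each group the total RNA of 3 uteri was pooled and 6 µg entered 1 library, so that no difference has a replicate check. Females of both groups were double transgenic VEGF tetO/tetO mice carrying 1 allele of the β-actin-tetR-Krab transgene, mated to VEGF tetO/tetO males, and were littermates 9 to 10 weeks old. Dox+ females were kept on chow with 200 mg/kg doxycycline, which releases the tetR-Krab repressor from the VEGF promoter, and Dox− females received regular chow after weaning, which leaves VEGF repressed. The Dox+ uteri are labelled VEGF-normal, but they carried the same alleles as the Dox− uteri, and only they were exposed to the drug at the time of collection. The repressor is driven by the β-actin promoter and described as universally expressed, and VEGF repression in single cell types of the uterus was not measured here.

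Proteins that enter the secretory pathway are threaded into the ER through the Sec61 channel, folded by Hsp70, Hsp90 and lectin chaperones, and joined by disulfide bonds through isomerases and oxidases. Proteins that do not fold are drawn back to the cytosol and degraded, a process called ER-associated degradation. When unfolded proteins accumulate, the sensors IRE1 alpha, PERK and ATF6 switch on the transcription factors XBP1, ATF4 and cleaved ATF6, which raise the transcription of these same genes. Tissues that secrete much protein, such as uterine glands and collagen-producing stroma, use this machinery heavily.

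The libraries held 5985925 clean tags in Dox+ and 5844314 in Dox−, the totals implied by the deposited TPM values (copies per 1000000 clean tags), and 74.1% and 72.2% of them were counted to a gene. A single tag was therefore worth 0.167 TPM in Dox+ and 0.171 TPM in Dox−. Vegfa, the repressed gene, had 247 copies in Dox+ and 125 in Dox−, which was 1.93-fold lower (95% interval 1.55 to 2.41). A gene was called changed at a combined copy number of at least 200, a fold change of at least 1.5 and a false discovery rate (FDR) below 0.05 by the Audic-Claverie test. That test compares these 2 libraries and not the conditions, and all intervals given are exact Clopper-Pearson intervals that cover counting error only. Markers of all uterine layers were present in both libraries. In whole tissue, fewer cells of a type and less RNA per cell cannot be told apart.

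Of the 34 ER genes, 30 reached 200 combined copies, and 18 of these 30 (60.0%) were higher in Dox−, none was lower and 12 were not called. Among all 6547 genes tested, 15.2% were called higher and 14.7% lower. When edgeR's exact test assumed a coefficient of variation between samples of 0.2 or 0.4, 1 and 0 of 30 ER genes were called higher. Of all genes tested, 2.25% and 0.244% were called higher in these settings. The ratio of Dox− to Dox+ was above 1 for 29 of the 30 ER genes, beside 52.1% of all genes tested. Its 95% interval lay wholly above 1 for 27 of the 30, beside 34.8% of all genes tested. Whether an interval excludes 1 also depends on copy number, for which the ER genes and all genes were not matched. The 30 genes had a median log2 ratio of 0.70, with a range from −0.46 to 1.31, against a median of 0.03 and quartiles of −0.36 and 0.40 over all genes tested. Summed over the 34 genes, 28040 tags (4684 TPM) in Dox+ became 41200 tags (7050 TPM) in Dox−, a 1.505-fold higher sum (1.48 to 1.53). By summed tags the sensors and transcription factors were 1.85-fold higher (1.75 to 1.94), an interval that overlapped that of the translocon genes and lay above those of the other groups.

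**Figure D1:**
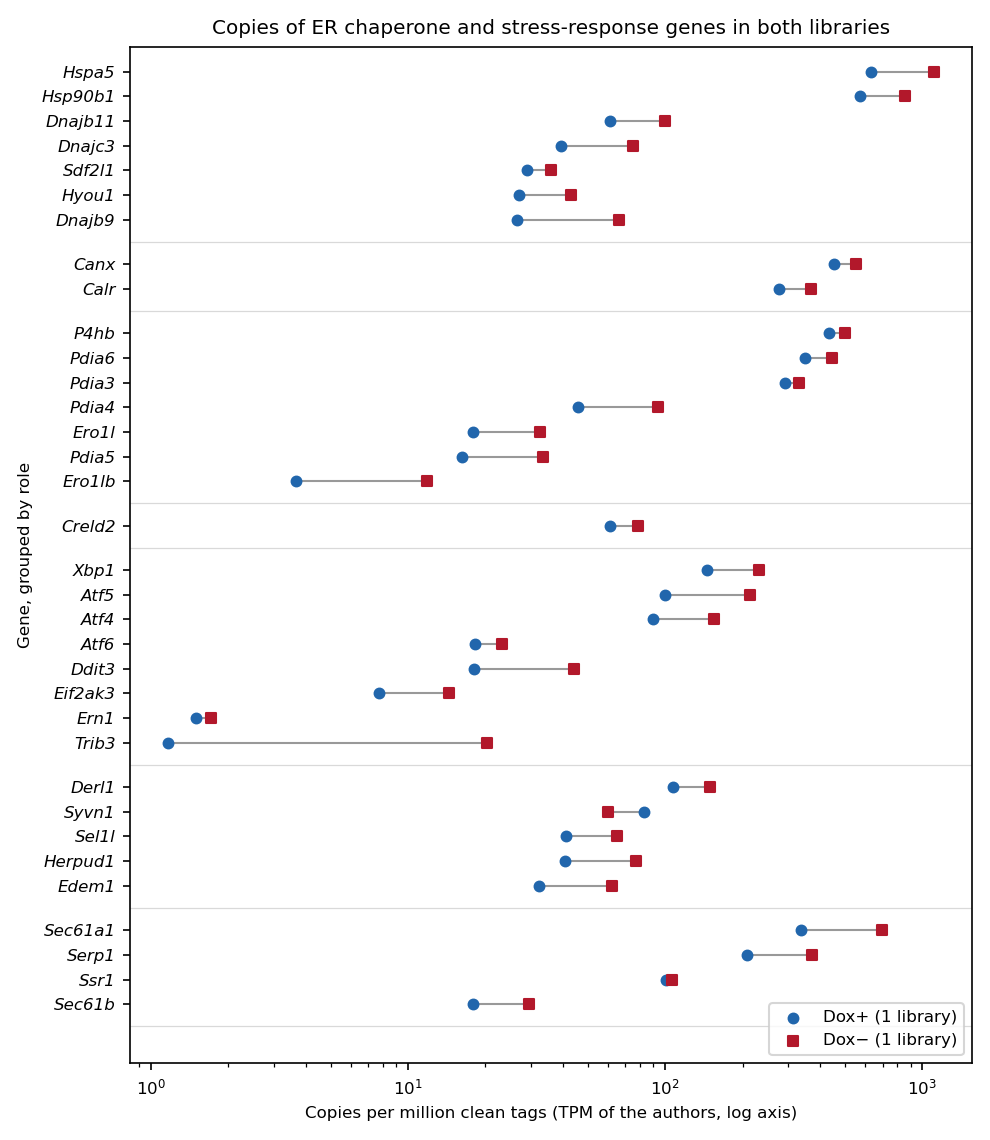
Levels of the 34 ER genes in TPM on a log axis, with 1 point for the Dox+ library and 1 for the Dox− library of each gene, ordered by role. Hspa5 stood highest in both libraries, at 633 and 1107 TPM, and Syvn1 was the only gene whose Dox− point lay below its Dox+ point.

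**Figure D2:**
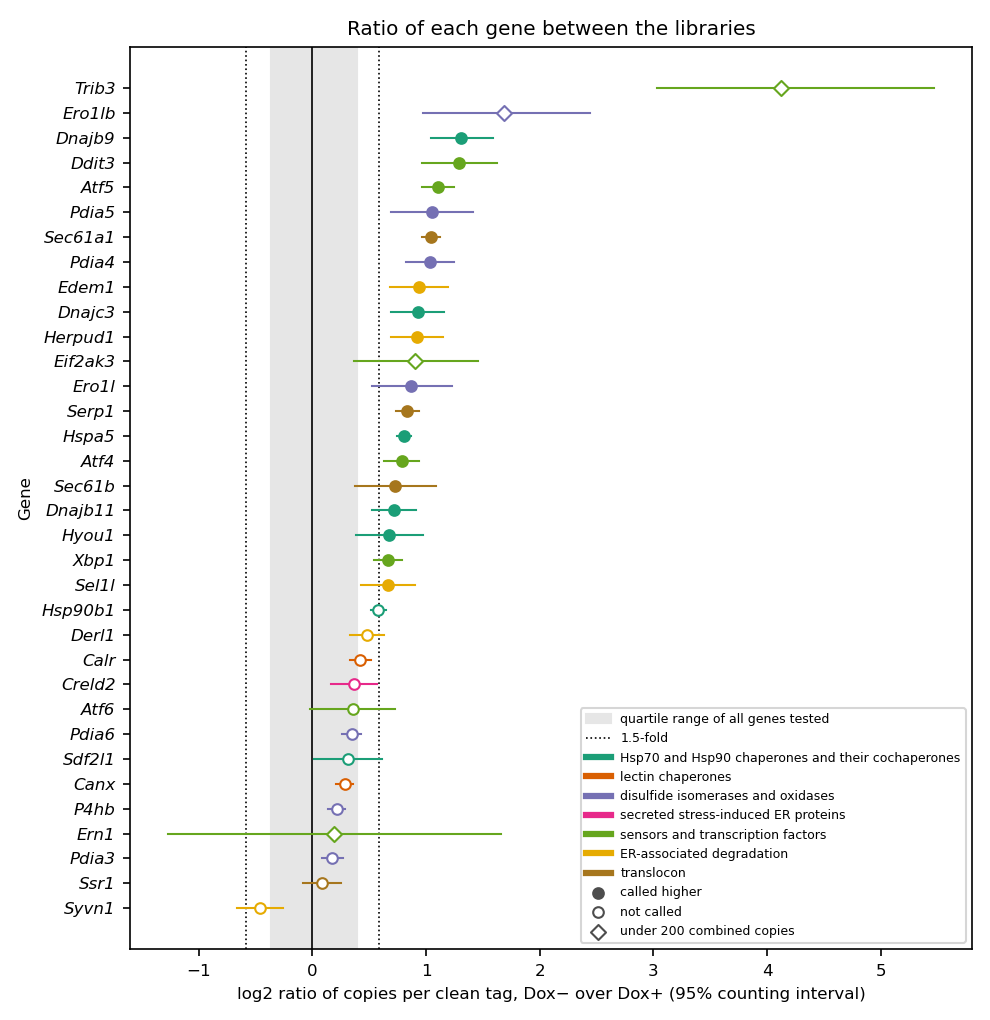
The log2 ratio of copies per clean tag, Dox− over Dox+, for each of the 34 ER genes with its exact 95% interval for counting error. Of 30 genes with at least 200 combined copies, 18 were called higher, and Trib3, at 4.12, lay far to the right of the others on 126 tags.

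The Hsp70 and Hsp90 chaperones and their cochaperones carried the most tags, with 5 of 7 called higher, none lower and a median log2 ratio of 0.72. Their sum of 1386 TPM in the Dox+ library stood against 2280 TPM in the Dox− library, 1.65-fold higher (1.60 to 1.69). Hspa5 encodes BiP, the Hsp70 of the ER lumen and the protein that holds the stress sensors inactive. It had 3790 copies in Dox+ and 6472 in Dox−, and was 1.75-fold higher (1.68 to 1.82). Hsp90b1, which encodes GRP94, the Hsp90 of the ER, had 3412 copies in Dox+ and 4983 in Dox−. Its ratio of 1.496 (1.43 to 1.56) lay just under the required 1.5, so it was not called, although its interval was far from 1. Both led the set in each library also per kilobase of transcript, with 242 and 424 TPM per kilobase for Hspa5 and 202 and 302 for Hsp90b1.

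The cochaperones of BiP differed from each other by more than their counting error. Dnajb9 (ERdj4), a J-domain protein that delivers clients to BiP and a strong target of XBP1, had 159 copies (26.6 TPM) in Dox+ and 385 (65.9 TPM) in Dox−. Its 2.48-fold rise (2.06 to 3.00) was the largest of the 30 genes tested. The interval overlapped those of several genes described further on, among them Ddit3, Atf5, Pdia4, Pdia5 and Sec61a1. Dnajc3 (p58IPK), a J-domain protein that also restrains PERK, rose from 236 to 438 copies, 1.90-fold (1.62 to 2.24). Dnajb11 (ERdj3), which binds unfolded chains directly, rose from 364 to 585 copies, 1.65-fold (1.44 to 1.88). Hyou1 (GRP170), which exchanges the nucleotide of BiP, rose from 161 to 251 copies, 1.60-fold (1.30 to 1.96). Sdf2l1, the partner of ERdj3, had 173 and 210 copies, and its 1.24-fold ratio (1.01 to 1.53) was not called. The interval of Sdf2l1 lay wholly below that of Dnajc3 and overlapped that of Dnajb11.

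The lectin chaperones hold glycoproteins that carry a trimmed glucose-bearing glycan until they are folded. Neither was called, and their summed level was 1.26-fold higher in Dox− (1.21 to 1.31). Calr, the soluble calreticulin, had 1655 copies in Dox+ and 2162 in Dox−, a ratio of 1.34 (1.25 to 1.43). Canx, the membrane-bound calnexin, had 2707 and 3215 copies, a ratio of 1.22 (1.16 to 1.28). Both intervals lay above 1 and below that of Hspa5.

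The disulfide isomerases fell into those with high and those with low copy numbers. The abundant enzymes were not called: P4hb, protein disulfide isomerase itself and the beta subunit of collagen prolyl 4-hydroxylase, had 2595 copies in Dox+ and 2935 in Dox−, a ratio of 1.16 (1.10 to 1.22). Pdia3 (ERp57), the isomerase that works with calnexin and calreticulin, had 1755 and 1936 copies, a ratio of 1.13 (1.06 to 1.21). Pdia6 (P5), which associates with BiP, had 2097 and 2606 copies, a ratio of 1.27 (1.20 to 1.35). The less abundant isomerases rose by more than any of these. Pdia4 (ERp72) rose from 274 to 548 copies, 2.05-fold (1.77 to 2.38), and Pdia5 (PDIR) from 97 to 196 copies, 2.07-fold (1.61 to 2.67). Neither interval overlapped those of P4hb, Pdia3 and Pdia6.

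The oxidases pass the electrons of new disulfide bonds on to oxygen. Ero1l (Ero1 alpha), a gene that hypoxia also induces, rose from 107 to 191 copies, 1.83-fold (1.44 to 2.34). With a trend over GC content and transcript length subtracted its log2 ratio was 0.58, just under the required fold change. Ero1lb (Ero1 beta) was below the copy number required for a test, with 22 copies (3.68 TPM) in Dox+ and 69 (11.8 TPM) in Dox−, a ratio of 3.21 (1.96 to 5.45). Over the 7 isomerases and oxidases, 3 of the 6 tested were higher and none was lower, and the summed level was 1.25-fold higher (1.21 to 1.29), and most of its tags came from P4hb, Pdia3 and Pdia6. Creld2, a cysteine-rich ER protein induced by ER stress, had 365 and 460 copies, and its ratio of 1.29 (1.12 to 1.49) was not called.

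Of the sensors and transcription factors, 4 of the 5 tested were higher, none was lower, and the median log2 ratio was 0.79. The sensors themselves were scarce. Ern1 (IRE1 alpha), which splices Xbp1 mRNA, had 9 copies in Dox+ and 10 in Dox−, and at this depth its ratio could lie anywhere from 0.416 to 3.17. Atf6, the sensor that is itself a transcription factor, had 109 and 136 copies, a ratio of 1.28 whose interval from 0.986 to 1.66 held 1. Eif2ak3 (PERK), a kinase of eIF2 alpha, had 46 and 84 copies, too few for the test, with a ratio of 1.87 (1.29 to 2.74). Xbp1, the factor activated by IRE1 alpha, rose from 869 to 1348 copies, 1.59-fold (1.46 to 1.73). A copy number does not tell the spliced from the unspliced Xbp1 mRNA.

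Atf4, Atf5 and Ddit3, which lie downstream of eIF2 alpha phosphorylation, were called higher. The phosphorylation itself was not measured. Atf4, the factor translated when eIF2 alpha is phosphorylated, rose from 536 copies (89.5 TPM) to 902 (154 TPM), 1.72-fold (1.55 to 1.92). Atf5, a related factor with the same kind of translational control, rose from 596 copies to 1252, 2.15-fold (1.95 to 2.38). Ddit3, which encodes CHOP, a target of ATF4 that favours cell death in prolonged stress, rose from 108 copies (18.0 TPM) to 258 (44.2 TPM), 2.45-fold (1.95 to 3.09). Trib3, a pseudokinase gene under ATF4 and CHOP, had only 7 copies (1.17 TPM) in Dox+ and 119 (20.4 TPM) in Dox−. Its ratio of 17.4 (8.19 to 44.2) was the highest of the 34 genes, but its 126 combined copies kept it out of the test. Without a minimum copy number Trib3, Ero1lb and Eif2ak3 were called as well, which gave 21 ER genes called higher, and none lower, beside 13.9% of 14678 genes higher and 14.2% lower. Atf5 overlaps Nup62 and Il4i1, and Ddit3 overlaps Mars, on the opposite strand, as Pdia3 does with Catsper2 and Pdia6 with Atp6v1c2. Tags of such pairs are kept apart only where the strand was used in counting. The study reports the copy numbers of sense and antisense tags separately.

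Among the genes of ER-associated degradation, 3 of 5 were higher, none was lower and the median log2 ratio was 0.66. Herpud1, a membrane protein that gathers the degradation complex, rose from 243 to 449 copies, 1.89-fold (1.62 to 2.22). Edem1, a mannosidase-like factor that takes misfolded glycoproteins out of the folding cycle, rose from 194 to 362 copies, 1.91-fold (1.60 to 2.29). Sel1l, the adaptor of the HRD1 ubiquitin ligase, rose from 246 to 380 copies, 1.58-fold (1.34 to 1.87). Derl1, a derlin of the retrotranslocation complex, had 641 and 873 copies, a ratio of 1.39 (1.26 to 1.55) that was not called. Syvn1, the HRD1 ligase itself, went against the rest, with 495 copies (82.7 TPM) in Dox+ and 351 (60.1 TPM) in Dox−. Its ratio of 0.726 (0.632 to 0.834) was below 1 beyond counting error and was not called, and its interval did not overlap that of its adaptor Sel1l. Syvn1 overlaps Mrpl49 on the opposite strand.

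Of the translocon genes, 3 of 4 were higher, none was lower, and the summed level was 1.81-fold higher (1.74 to 1.89). Sec61a1, the pore-forming subunit of the channel, rose from 2019 copies (337 TPM) to 4069 (696 TPM), 2.06-fold (1.96 to 2.18). It gained 359 TPM, second only to Hspa5, which gained 474 TPM. Sec61b, a small subunit of the same channel, rose from 107 to 173 copies, 1.66-fold (1.29 to 2.13). Serp1 (RAMP4), which steadies new membrane proteins at the channel under stress, rose from 1244 to 2169 copies, 1.79-fold (1.66 to 1.92), and overlaps Eif2a on the opposite strand. Ssr1, the alpha subunit of the translocon-associated protein complex, had 602 and 623 copies, a ratio of 1.06 (0.946 to 1.19) whose interval held 1.

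Promoter windows of 250 bases before to 50 bases after the start, from RefSeq, were matched for 30 of the 35 genes, those missing being Hyou1, Manf, Atf6, Derl1 and Sec61a1. The ER stress element (ERSE), bound by ATF6 with NF-Y and by XBP1, was searched on both strands as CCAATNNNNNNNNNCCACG. It was present in 39 of 32851 windows (0.119%), and 9 of these were windows of the 30 ER genes. The shorter ERSE-II, searched as ATTGGNCCACG, was in 12 windows (0.0365%), of which Herpud1 and Dnajb11 were members of the set. The motifs share the letters CCACG, but no match of the ER genes was counted under both. The stretches below, on NCBIM37 (the assembly of mm9), show every match of these motifs before the start of an ER gene. The genes were chosen as part of the response these elements serve, so the number of matches is not independent of the choice. Capitals mark the fixed letters of the motif, and the reverse orientation reads CGTGG then ATTGG. Each line runs 5′ to 3′ on the strand of the gene.
Hspa5, chr2:34627533-34627575, + strand: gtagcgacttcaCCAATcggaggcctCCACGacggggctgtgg
Hsp90b1, chr10:86168266-86168413, − strand: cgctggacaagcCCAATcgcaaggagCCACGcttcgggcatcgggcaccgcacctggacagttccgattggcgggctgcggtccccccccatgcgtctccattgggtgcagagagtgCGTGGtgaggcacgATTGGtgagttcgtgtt
Dnajc3, chr14:119337037-119337079, + strand: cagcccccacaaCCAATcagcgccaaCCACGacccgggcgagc
Calr, chr8:87370962-87371004, − strand: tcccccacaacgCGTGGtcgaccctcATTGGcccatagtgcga
Canx, chr11:50139290-50139332, − strand: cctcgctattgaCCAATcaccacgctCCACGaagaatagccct
Pdia6, chr12:17273285-17273327, + strand: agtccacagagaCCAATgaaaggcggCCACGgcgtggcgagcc
Ero1lb, chr13:12657937-12657979, + strand: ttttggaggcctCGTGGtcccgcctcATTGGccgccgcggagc
Creld2, chr15:88649938-88649980, + strand: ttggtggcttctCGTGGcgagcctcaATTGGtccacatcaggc
Syvn1, chr19:6046520-6046562, + strand: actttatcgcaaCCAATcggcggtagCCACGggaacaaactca
Herpud1, with ERSE-II, chr8:96910265-96910299, + strand: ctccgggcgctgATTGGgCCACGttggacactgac

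In the GENCODE vM1 annotation 8 of the 10 stretches lie outside any annotated gene, just upstream of the gene they are named for. The stretch of Hspa5 lies in the first exon of a processed transcript of Hspa5 that starts further upstream, and that of Herpud1 within the gene Gm15890 on the opposite strand. Hsp90b1 carried the element in both orientations, at 212 to 194 and at 107 to 89 bases before its start, and each of the others carried 1.

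Genes with and without the element overlapped in ratio. Of the 8 tested ER genes with an ERSE, 2 were called higher (Hspa5 and Dnajc3), with a median log2 ratio of 0.39. Of the 18 tested genes whose window lacked it, 14 were called higher, with a median of 0.81. The set with the element held Hspa5 at 0.81 and Dnajc3 at 0.93, but also the lectin chaperones, at 0.42 for Calr and 0.28 for Canx, and Syvn1 at −0.46. Herpud1 and Dnajb11, which carried the shorter element and are counted among these 18, were both called higher, at 0.92 and 0.72. The match of Dnajb11 lay after the start, so it is not among the stretches above. Outside the set, 3 tested genes had an ERSE in their window (Hnrnpa3, Alg12 and Spats2l), and none was called, with log2 ratios of 0.50, 0.47 and 0.13. They are named because they were the only ones, after their values were seen. The ERSE-II was in the windows of 5 tested genes outside the set. Of these, 1 was called higher and 2 lower, 2 had a ratio above 1, and the median log2 ratio was −0.40.

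**Figure D3:**
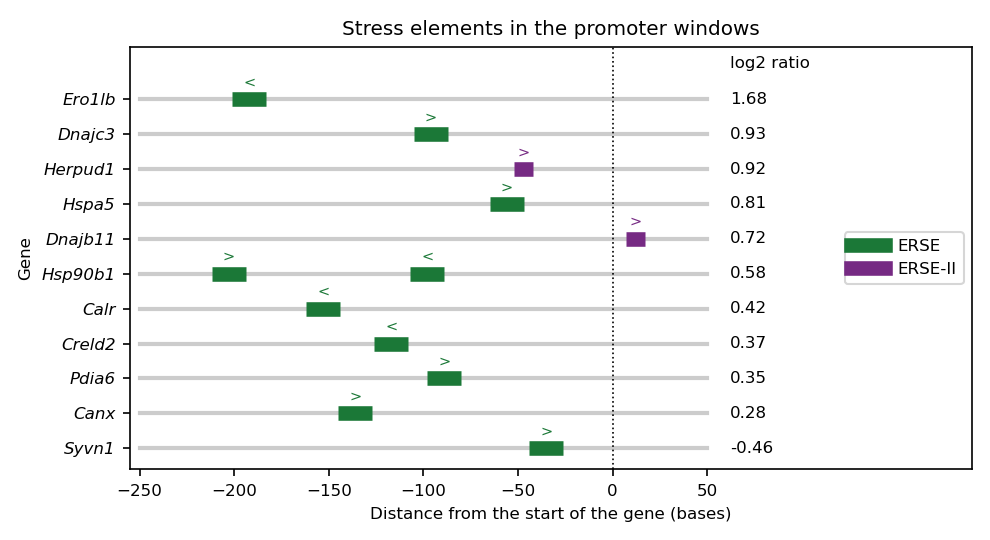
Position of each ERSE and ERSE-II in the promoter windows of 11 ER genes, in bases from the start of the gene, with the log2 ratio of the gene at the right and arrowheads for the orientation of the element. Genes are ordered by log2 ratio, and elements occur from the highest of these genes, Ero1lb at 1.68, to the lowest, Syvn1 at −0.46.

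A pair of further stress elements was searched in the same way, on both strands. The XBP1 element searched as TGACGTGG was in 222 windows (0.676%) and in none of the 30. The letters TGATGNAA of the amino acid response element, bound by ATF4, were in 1304 windows (3.97%), of which Herpud1 and Trib3 belonged to the set. A match is a description of these letters in this window and not a bound site.

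Other listed ER genes were compared with the set to see how far the difference reached. Of 114 tested genes in 6 further lists of ER folding, redox, degradation, stress and translocation genes, 29 (25.4%) were higher, 7 (6.14%) were lower and 78 were not called, with a median log2 ratio of 0.25. The other stress-response regulators and targets had 6 of 19 higher and 1 lower. They were led by Slc7a11, the cystine transporter, from 77 to 229 copies (3.05-fold), Creb3l1, a membrane-bound factor that drives collagen secretion, from 396 to 1099 (2.84-fold), Cebpb, from 258 to 692 (2.75-fold), and Sqstm1, the autophagy receptor, from 682 to 1301 (1.95-fold). The other translocon, signal peptidase and oligosaccharyltransferase genes had 11 of 32 higher and 2 lower, with a median log2 ratio of 0.42. Among them Ostc, an oligosaccharyltransferase subunit, rose from 593 to 1509 copies (2.61-fold), Srprb, of the signal recognition particle receptor, from 316 to 612 (1.98-fold), and Sec61g, of the Sec61 channel, from 1249 to 2276 (1.87-fold).

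Folding genes outside the set moved less uniformly. The other folding and quality control genes had 6 of 24 higher and 1 lower, and their summed level was nearly the same, at 0.969-fold (0.953 to 0.984). Serpinh1, the collagen chaperone Hsp47, alone held 16068 of 30217 tags in Dox+ and 13980 of 28573 in Dox−. Fkbp11 and Fkbp14, prolyl isomerases of the ER, rose 2.75-fold and 2.51-fold, Mogs, the first glucosidase of glycan trimming, rose 2.15-fold, and Lman1, a cargo receptor for ER exit, rose 1.94-fold. The other thioredoxin-fold and redox enzymes had 0 of 12 higher and 1 lower, with a median of 0.23. The most abundant of them, Txndc5, had 1989 and 2355 copies. Collagen hydroxylases had 2 of 7 higher and 1 lower, with Plod2 rising from 156 to 417 copies (2.74-fold), P4ha2 from 391 to 596 (1.56-fold) and Crtap, the most abundant, at 1279 and 1267. The other degradation genes had 4 of 20 higher and 1 lower. The most abundant of them, Vcp, the ATPase that extracts degradation substrates, had 2140 and 2691 copies, and Edem3 rose 1.81-fold, Ube2j1 1.68-fold and Selk 1.62-fold.

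A list of genes from outside the ER, mostly chaperones of the cytosol, served as a comparison. It also held Hspd1, Hspe1 and Hspa9, chaperones of mitochondria, and Hsf1, a transcription factor gene. Of 25 tested, 2 were higher (Cct6a at 1.77-fold and Hsph1 at 1.62-fold) and 1 was lower, with a median log2 ratio of 0.17. The summed level of this mixed list was 1.01-fold (0.997 to 1.02), an interval that held 1. The mitochondrial genes entered this sum, with ratios of 1.44 for Hspe1, 1.32 for Hspd1 and 0.997 for Hspa9. A sum over the cytosolic chaperones alone was not taken, so the interval does not describe them alone. Hsp90ab1, the most abundant, had 8989 copies in Dox+ and 7599 in Dox−, and the small heat shock gene Hspb1 fell from 2083 to 772 copies, to 0.380 of its level. Hsp90aa1, the other cytosolic Hsp90 gene, named after its values were seen, had 1763 and 2573 copies, and its ratio of 1.495 (1.41 to 1.59) was about that of Hsp90b1, the Hsp90 of the ER.

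**Figure D4:**
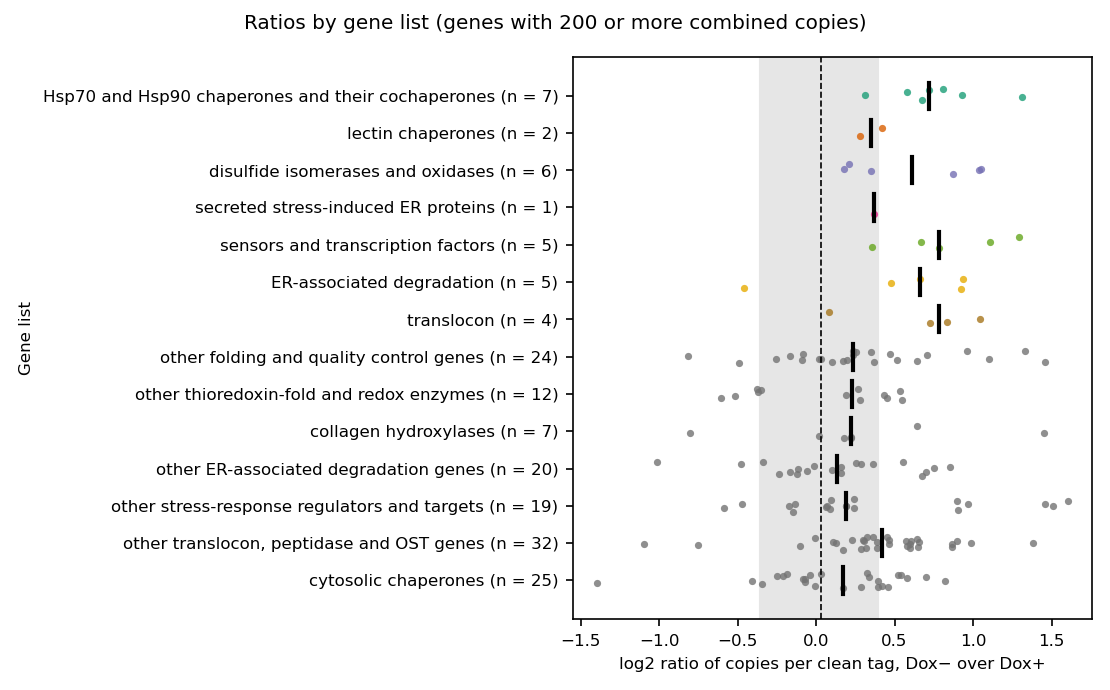
The log2 ratio of each gene with at least 200 combined copies, by gene list, with the ER genes of the set in colour and other lists in grey. Black bars are list medians, the dashed line is the median of all genes tested (0.03) and the shaded band runs between their quartiles (−0.36 and 0.40), and 5 of the 7 lists of the set have their median above the band.

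Markers of uterine cell types were compared between the libraries beside these genes, and some differed while others were not called. Luminal and glandular epithelium had 3 of 7 tested markers higher and none lower, and the sum of its 8 markers, 955 TPM in Dox+, was 1550 TPM in Dox−, 1.62-fold higher (1.57 to 1.68). Wnt7a rose from 48 to 273 copies, Ltf, the estrogen-induced lactoferrin, from 905 to 2639, and Epcam from 467 to 821. Ltf alone held 905 of the 5717 tags of this list in Dox+ and 2639 of 9059 in Dox−. Krt19, a keratin gene and the marker with the most copies, had a ratio of 1.35 and was not called. Neither were Cdh1, Krt18 and Krt8, with ratios of 1.32, 1.30 and 1.14. Foxa2 was level, with 35 and 34 copies, too few for the test. Stroma had 2 of 6 higher and 3 lower, with Hoxa11 falling from 2573 to 785 copies and Hoxa10 from 3120 to 1060, Vim falling from 2612 to 1680 and Pgr, the progesterone receptor, rising from 687 to 1251. Esr1, an estrogen receptor gene, rose from 165 to 262. Neither Pgr nor Esr1 is expressed by stroma alone. The 6 stroma markers summed to 5375 and 6628 TPM. Col1a1, the most abundant, was at 1.499-fold and was not called. It held 23017 of their 32174 tags in Dox+ and 33696 of 38734 in Dox−, so that the sum mainly followed this gene. Smooth muscle had 2 of 5 lower (Des from 4647 to 2578 copies and Cnn1 from 4866 to 2851) and none higher, with Tagln, the most abundant, at 0.794, and summed to 4972 and 3463 TPM. No marker of these lists was at 0 in either library. Their part in the result was not tested.

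Plasma cells, which carry abundant ER, had few copies of most of their markers. Of the 5 plasma cell markers in the table, Igj, the joining chain of immunoglobulin, fell from 416 to 237 copies and Sdc1, which epithelium also expresses, had 1135 and 1578. Derl3 had 8 and 18 copies, Prdm1 had 23 and 7, and Tnfrsf17 had none in Dox+ and 2 in Dox−. For leukocytes the sum of 4 markers was 47.6 TPM in Dox+ against 71.2 TPM in Dox−. Csf1r, the most abundant, had 186 and 181 copies, while Ptprc had 49 and 130 (a ratio of 2.72, 1.94 to 3.86) and Itgam 45 and 97 (2.21, 1.54 to 3.22), both too few for the test. Markers of endothelium summed to 131 and 91.9 TPM, of which Cdh5 fell from 446 to 216 copies, Pecam1 had 243 and 253, Tek 87 and 51 and Kdr 10 and 17, and those of adipocytes to 64.7 and 41.9 TPM, of which Adipoq fell from 157 to 78 and Fabp4 had 224 and 163. The 1 red blood cell marker in the table, Hba-a1, had 26 and 114 copies. Their part in the result was not tested.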

How the data were processed

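Total RNA of 3 pooled uteri per group was profiled at G2.5 as 1 Dox+ and 1 Dox− library. The deposited counts are the tags the authors assigned to each gene, without normalization. The deposited TPM values are the authors' copy numbers per 1000000 clean tags, without a length correction and with a small fixed value for a count of 0. The deposited ratios, log2 ratios, P-values and FDR values are comparisons made by the authors and were not used. CASAVA and build mm9 are named in the submitters' processing notes, the aligner is not given in the sources used here, and the sample descriptions mention fragmentation of mRNA where the study describes tag profiling, which was not resolved.

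Copies were divided by the clean tags that the TPM values imply. The two-sided Audic-Claverie test was computed for all 14678 genes with Benjamini-Hochberg adjustment over all of them, and only the 6547 genes with at least 200 combined copies, referred to as tested, could be called. With 1 library per group, edgeR's quasi-likelihood test could not be fitted, and p-values are not printed. TPM per kilobase used the transcript lengths of GENCODE vM1 on NCBIM37. Tags taken at a fixed site do not scale with length, so TPM was given too. Intervals are at 95%. All genes of the set were named, and of each other list the gene with the most copies and up to 4 called genes with the largest fold change, and Vegfa. Markers beyond that rule, and called genes of the closing part, were chosen after their values were seen. The genes and lists were chosen with earlier results of these data known. As alternatives, the minimum copy number was lowered or dropped, libraries were scaled by TMM, median ratios or counted tags, and Fisher's exact test, edgeR with assumed coefficients of variation, other thresholds, a pseudocount of 1, the mean and a GC and length trend were tried. The methods were tested on simulated data. Python 3.11.15, numpy 2.4.6, scipy 1.17.1, pandas 2.3.3, matplotlib 3.10.9, R 4.3.3 and edgeR 4.0.16 were used.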

Additional observations from a re-analysis of the deposited data

How the results depend on the processing

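The 18 ER genes called higher in Dox− became 1 (Dnajb9) and 0 when edgeR's exact test assumed a coefficient of variation between samples of 0.2 and 0.4, and 3 and 1 with no minimum copy number as well, the latter 2 settings chosen after seeing the data. Among all genes the share called higher was then 2.25% and 0.244% with the minimum and 2.60% and 0.225% without it. At a fold change of at least 2 the number was 6 (Dnajb9, Ddit3, Atf5, Pdia5, Sec61a1 and Pdia4), beside 4.61% of all genes. In the other 11 settings it lay between 17 and 21. No ER gene was called lower in any setting. The median log2 ratio ranged from 0.65 to 0.74 over 8 alternatives. Subtracting the GC and length trend ended the call of Ero1l, at a log2 ratio of 0.58, and brought Canx to 0.05 and Ssr1 to −0.09. With 1 library per group none could be left out, and the spread between animals is unknown.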

Other observations

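Some ER genes with partners in the set were lower in Dox−, and they were picked out here after their values were seen. Os9, a lectin that brings substrates to the ligase of Syvn1 and Sel1l, fell from 797 to 385 copies, to 0.495 of its level (0.437 to 0.559). Ssr2, the beta subunit of the complex of Ssr1, fell from 936 to 427 copies, to 0.467 (0.416 to 0.524), while Ssr3, with 3502 and 4174 copies, was not called and Ssr4 rose from 943 to 1392. Erp44, which retains Ero1 oxidases in the ER, fell from 975 to 627 copies, to 0.659 (0.595 to 0.729). Atf6b, the paralogue of Atf6, fell from 924 to 600 copies, to 0.665 (0.599 to 0.738). Fkbp9, a prolyl isomerase, fell from 2375 to 1320 copies, whereas Fkbp11 and Fkbp14 rose. Of the lysyl hydroxylases of collagen, Plod3 fell from 730 to 409 copies, Plod2 rose, and Plod1, with 599 and 683 copies, was not called. Among the other stress-response regulators and targets, Asns, asparagine synthetase, rose from 282 to 513 copies (1.86-fold, 1.61 to 2.16) and Nupr1 from 80 to 146 (1.87-fold, 1.41 to 2.49). In the same list Slc3a2, with 218 and 226 copies, and Vldlr, with 192 and 135 (a ratio of 0.720, 0.574 to 0.902), were not called. Ppp1r15a, with 99 and 96, Cth, with 66 and 27, and Sesn2, with 5 and 0, were too scarce for the test. Equally scarce were Chac1, with 4 and 23 (a ratio of 5.89, 2.01 to 23.4), and Stc2, with 19 and 63 (3.40, 2.01 to 6.01). Of the 32 genes of this list with a row, 21 had a ratio above 1 and 11 below.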
